A study of Mus musculus with 16 samples.

Results

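The sorted-fraction contrast of olfactory mucosa cells was compared between mice given whiskey lactone and mice given vehicle. For each pool of mice, the log2 signal of the array titled GFP- was subtracted from that of the array titled GFP+, and the 4 differences of the odor pools were set against the 4 of the vehicle pools. All 16 of the 16 arrays entered, as 8 pools with both fractions, and the question was which genes, odorant receptors above all, were distributed differently between the fractions after odor. The value reported for a gene, here called the fraction contrast difference, is the odor contrast minus the vehicle contrast on the log2 scale. A negative value means that the gene stood lower in the fraction titled GFP+, relative to the fraction titled GFP-, in odor pools than in vehicle pools.

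All groups came from S100a5-tauGFP mice of the C57BL/6 strain, 24 animals of both sexes aged 7 to 12 weeks, so that vehicle animals carried the reporter too. Every mouse sat alone in a clean-air chamber for 40 h at 3.1 L/min. Stimulation began at 26 h, with a 10 s pulse every 20 min. Vehicle mice were given filtered air, and odor mice whiskey lactone, which oak wood releases into aged spirits. Cells of 3 mice were pooled, sorted by fluorescence into the 2 fractions, and profiled on Affymetrix arrays from 50 to 100 ng of total RNA. The odor arrays titled GFP+, odor arrays titled GFP-, vehicle arrays titled GFP+ and vehicle arrays titled GFP- were 4 groups of 4 arrays each. Replicates are separate pools of mice, and the spread between single animals was not measured.

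Odorant receptors are G protein-coupled receptors of the cilia of olfactory sensory neurons, and a mature neuron expresses a single receptor gene from a very large family. S100a5 encodes a calcium-binding protein whose transcription in these neurons depends on their activity, and its locus drives the fluorescent protein in this line. In such an assay, neurons that respond to an odor gain fluorescence, so the mRNA of their receptor moves from the unlabelled into the labelled fraction.

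The labels disagree on which fraction is which. In all 16 arrays the cell type field names the fraction opposite to the title. The groups here follow the titles, and every difference between fractions, as well as every fraction contrast difference, changes its sign if that field is followed instead. S100a5 itself was lower in the array titled GFP+ of each of the 8 pools. The pool differences of S100a5 were -1.68, -1.31, -1.10 and -1.27 in odor and -1.44, -1.31, -0.96 and -1.22 in vehicle, so the reporter's own gene stood higher in the fraction titled GFP- under both treatments.

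The median log2 signal of an array was between 6.08 and 6.47, and background was read from 5222 negative control features, with medians between 4.98 and 5.59. The arrays measured 19505 genes, of which 1080 were odorant receptors named Olfr with a number. Between 58.0% and 66.4% of all genes, and between 81.5% and 87.3% of the receptors, lay above the negative control median of an array. The lowest correlation between 2 arrays of a group was 0.986. Omp, which marks mature sensory neurons, ranged from 18.4 to 18.8 over the 16 arrays, near the top of the scale in both fractions.

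Of the 19505 genes, 1 passed an adjusted p of 0.05 in limma's moderated test (0.00513% of those tested), and it was the receptor Olfr221. A further receptor, Olfr937, had the next largest absolute difference and the next smallest p, but did not pass. Both receptors had been singled out from earlier results of these data. They belong to different receptor families, MOR205 and MOR171 in the MOR nomenclature, which groups mouse odorant receptors by protein sequence. To set their sequences side by side, the first 50 bases from the annotated start codon of each gene are given 5′ to 3′ from RefSeq, assembly GRCm38.p6, with the start codon in capitals. Olfr221 begins at chr14:52036060-52036109 and Olfr937 at chr9:39060615-39060664, both on the minus strand, and this stretch is coding sequence in both.

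Olfr221: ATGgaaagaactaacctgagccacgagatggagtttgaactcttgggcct
Olfr937: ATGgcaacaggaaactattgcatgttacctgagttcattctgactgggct

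Position by position, without gaps, 23 of the 50 bases are the same. An ATG stood exactly at the annotated start in 673 of the 921 receptors with a sequence window (73.1%). Among these, receptors outside MOR171 shared a median of 18 bases with Olfr937 and at most 35.

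Olfr221 was high in the fraction titled GFP- and low in the fraction titled GFP+ after odor, and the other way round after vehicle. In odor pools 1 to 4 the arrays titled GFP+ read 7.22, 6.63, 6.24 and 9.05, and the arrays titled GFP- read 11.42, 12.12, 11.54 and 11.58. In vehicle pools 1 to 4 the arrays titled GFP+ read 10.41, 10.54, 10.07 and 10.13, and the arrays titled GFP- read 8.96, 8.26, 8.49 and 9.72. Within each fraction the 4 odor arrays did not overlap the 4 vehicle arrays, and all 16 signals lay above the negative control median of their array.

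The pool differences of Olfr221 were -4.19, -5.48, -5.30 and -2.53 in odor and 1.45, 2.27, 1.59 and 0.41 in vehicle. All 4 odor pools were negative and all 4 vehicle pools positive. The mean contrast was -4.38 ± 0.40 (SE) in odor, a 20.8-fold lower signal in the array titled GFP+. It was 1.43 ± 0.40 (SE) in vehicle, a 2.69-fold higher one. SE of contrasts, here and below, are moderated values from the fit over 8 pools, with an error shared by both treatments. The SD of the 4 pool differences was 1.36 in odor and 0.77 in vehicle. The fraction contrast difference was -5.81 ± 0.56 (SE, 95% confidence interval -7.02 to -4.59), a 55.9-fold change of the ratio between fractions, with a limma p of 1.57e-07 and an adjusted p of 0.00306. Over the 17 alternative settings the difference was -6.42 to -5.44 and the adjusted p 3.93e-05 to 0.0572. The call was lost in 1 of them, the fit without a variance trend.

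Both fractions contributed to the difference of Olfr221. Among the arrays titled GFP+ the odor mean was 7.29 ± 1.24 (SD, n = 4) and the vehicle mean 10.29 ± 0.22 (SD, n = 4), which puts odor lower by 3.00 ± 0.44 (SE). It was the 1 gene that passed in that comparison (0.00513% of genes), with an adjusted limma p of 0.0412. This call was lost on leaving out any pool other than odor pool 4, with adjusted p of 0.0759 to 0.442, and also when dim genes were left out (adjusted p 0.0615) or without a variance trend (adjusted p 0.118). Without odor pool 4, whose array titled GFP+ had the highest Olfr221 signal of the 4, the difference in this fraction was -3.59.

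Among the arrays titled GFP- the odor mean of Olfr221 was 11.66 ± 0.31 (SD, n = 4) and the vehicle mean 8.86 ± 0.65 (SD, n = 4), a difference of 2.80 ± 0.44 (SE, 6.99-fold) with an adjusted limma p of 0.0996. With that p, 0 genes passed in this fraction (0% of genes). In these arrays odor and vehicle pools that share a number deviated together. With the replicate number as a block, fitted over both fractions at once, 14 genes passed (0.0718% of genes), among them Olfr221 with an adjusted p of 0.00548. The same fit also called genes in the arrays titled GFP+, counted in the last section. The level of Olfr221 was thus about as far apart between treatments in one fraction as in the other, in opposite directions. In sorted bulk RNA, fewer cells of a type and less RNA per cell cannot be told apart.

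Of the 14 genes that passed in the arrays titled GFP- with this block, 13 were higher and 1 lower after odor. They were named with their values in view. Besides Olfr221, the receptors Olfr1221 (2.22 ± 0.37 SE, adjusted limma p 0.0311) and Olfr1022 (2.49 ± 0.43 SE, adjusted p 0.0419) rose. Neither was lower in the arrays titled GFP+, where Olfr221 was. Olfr1221 was 0.56 ± 0.40 (SE) higher there. The fraction contrast difference of Olfr1022, -0.81 (adjusted limma p 0.999), was smaller than its rise, so it too was higher there. Of the 13 measured activity-linked neuronal genes 3 passed, against 0.0718% of all genes, and all 3 were higher after odor. They were the adhesion molecules Pcdh10 by 1.55 and Kirrel2 by 0.83, and Lrrc3b by 0.85. Their fraction contrast differences were only -0.22, 0.18 and 0.05, so these 3 rose in the arrays titled GFP+ as well. In the arrays titled GFP-, S100a5 stood at 0.07 with an adjusted p of 0.899. A gene that did not pass may still have differed, and Sema7a of this list was 0.50 higher (adjusted limma p 0.288 without the block). The potassium channel subunit Kcng1 rose by 1.50 ± 0.15 (SE, adjusted p 0.000755) and the transcription factor Etv5 by 0.93. Without the block the adjusted p of these 14 was 0.0996 or higher, so the calls rest on the pairing, which was read from these same data.

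**Figure D1:**
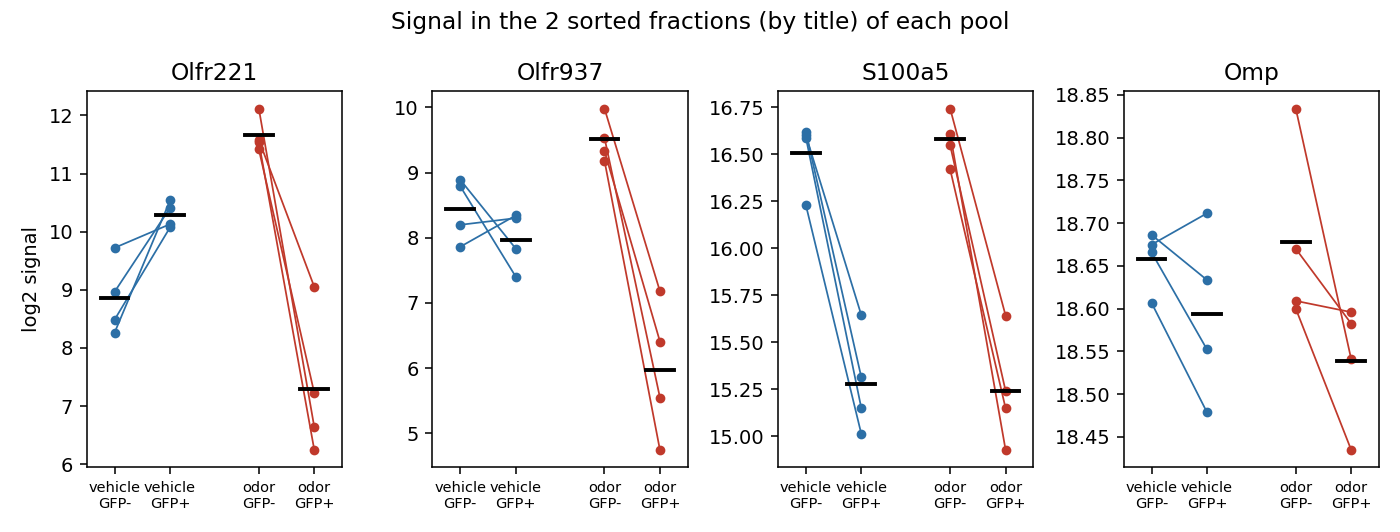
Log2 signal (vertical axis, a separate range for each gene) in the arrays titled GFP- and GFP+ of each pool, for 2 odorant receptors, the reporter gene S100a5 and Omp. Lines join the fractions of a pool, vehicle in blue and odor in red, and black bars are means of 4 pools; the Olfr221 lines rise in vehicle and fall in odor, while the S100a5 lines fall under both treatments.

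Olfr937 showed a smaller difference of the same sign. In odor pools 1 to 4 the arrays titled GFP+ read 5.55, 6.41, 4.74 and 7.18, and the arrays titled GFP- read 9.53, 9.33, 9.18 and 9.98. In vehicle pools 1 to 4 the arrays titled GFP+ read 8.34, 8.30, 7.40 and 7.83, and the arrays titled GFP- read 7.86, 8.20, 8.79 and 8.89. The odor and vehicle arrays did not overlap within either fraction, and 1 of the 4 odor arrays titled GFP+ was at or below its negative control median.

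The pool differences of Olfr937 were -3.99, -2.92, -4.44 and -2.80 in odor and 0.48, 0.10, -1.39 and -1.06 in vehicle. All odor pools were more negative than any vehicle pool, and the vehicle pools lay on both sides of 0. The odor contrast was -3.54 ± 0.32 (SE, 11.6-fold) and the vehicle contrast -0.46 ± 0.32 (SE). Their difference was -3.07 ± 0.46 (SE, 95% confidence interval -4.07 to -2.08, 8.42-fold), with a limma p of 1.69e-05 and an adjusted p of 0.165, which does not pass. Over the 17 alternatives it was -3.38 to -2.76, with adjusted p of 0.00459 to 0.857, and passed in 2 of them. With signals below the negative control median raised to it, the difference was -3.02.

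Within the fractions, Olfr937 was at 5.97 ± 1.05 (SD, n = 4) in odor and 7.97 ± 0.44 (SD, n = 4) in vehicle arrays titled GFP+, a difference of -2.00 ± 0.39 (SE) with an adjusted limma p of 0.275. In arrays titled GFP- it was at 9.51 ± 0.35 (SD, n = 4) in odor and 8.44 ± 0.49 (SD, n = 4) in vehicle, a difference of 1.07 ± 0.39 (SE) with an adjusted p of 0.769. As for Olfr221, the differences in the 2 fractions had opposite signs, but neither passed. Without odor pool 4 the difference in arrays titled GFP+ was -2.40 with an adjusted p of 0.0370.

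For the reporter gene, the contrasts under both treatments were close to each other. That of S100a5 was -1.34 ± 0.09 (SE) in odor and -1.23 ± 0.09 (SE) in vehicle, and their difference was -0.11 ± 0.13 (SE, 95% confidence interval -0.40 to 0.18, adjusted limma p 0.999). The pool differences of the treatments overlapped. Omp gave -0.08 ± 0.07 (SE, 95% confidence interval -0.24 to 0.09).

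Across the 1080 receptors the fraction contrast differences centred near 0. Their median was -0.04, with an interquartile range of -0.30 to 0.24, against a median of 0.00 over all genes. By sign, 588 receptors were negative and 492 positive. Of all genes, 638 had an unadjusted p under 0.05 (3.27%), and of the receptors 82 did (7.59%), 49 negative and 33 positive. At 2-fold or more stood 84 of all genes (0.431%) and 36 receptors (3.33%), 23 of them negative. At 4-fold or more stood 2 receptors, Olfr221 and Olfr937, and 0 of the 18425 other genes.

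Pool differences did not overlap, with odor lower, in 215 genes (1.10%) and in 13 receptors (1.20%). They did not overlap, with odor higher, in 168 genes (0.861%) and in 4 receptors (0.370%). The receptors' larger share past 2-fold went with a wider error. The median SE of a receptor was 0.352 against 0.246 for the other genes, and the median half-width of the 95% confidence interval was 0.764 against 0.533.

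The error of a receptor varied with its signal, but not steadily. The dimmest receptors, with a mean log2 signal up to 5, had a median SE of 0.311, and 3 of 104 stood at 2-fold or more. Receptors with a mean log2 signal of 5 to 7 had a median SE of 0.382, and 12 of 183 (6.56%) stood at 2-fold or more. Those above 11 had a median SE of 0.293, and 2 of 170 (1.18%) did. For a receptor of median error, the 95% confidence interval reached 0.764 to either side on the log2 scale with 4 pools per treatment. That width is not adjusted for the number of genes, and passing after adjustment took a larger shift. Olfr937 at -3.07 did not pass (adjusted limma p 0.165).

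**Figure D2:**
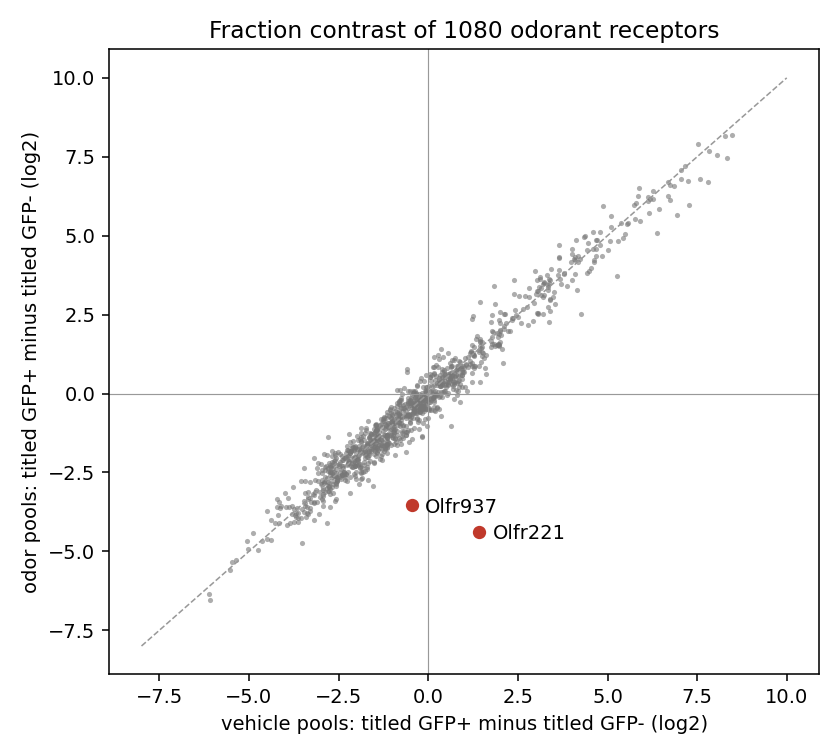
Mean titled GFP+ minus titled GFP- difference (log2) in the 4 vehicle pools (horizontal axis) against the 4 odor pools (vertical axis) for 1080 odorant receptors, 1 point each, with a dashed line of equality. Most points lie along the line, and Olfr937 and Olfr221 (red) lie below it, by 3.07 and 5.81.

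After Olfr221 and Olfr937, the 18 receptors of smallest p had differences of 0.83 to 1.73 in absolute size, p of 0.000354 to 0.00634 and an adjusted limma p of 0.999, so none passed. Of the 20 receptors together, 13 were negative and 7 positive. The pool differences of 11 did not overlap, 8 with odor lower and 3 with odor higher, against 1.10% and 0.861% of all genes. The 20 were picked for small p, which favours such pools, so nothing is read from this count. In 14 of the 20 the fraction contrast had the same sign under both treatments, and in 6, Olfr221 among them, the signs were opposite. The odor minus vehicle difference was larger in the arrays titled GFP+ for 12 and in those titled GFP- for 8.

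The largest of these 18 was Olfr1241, of family MOR231. Its pool differences were 1.06, 2.54, 2.78 and 3.71 in odor and 4.27, 4.11, 3.91 and 4.73 in vehicle. Odor pools were lower without overlap, and the receptor stayed on the titled GFP+ side throughout. The difference was -1.73 ± 0.43 (SE, p 0.00159), almost all of it in the arrays titled GFP+ (-1.76), with -0.02 in those titled GFP-.

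Olfr1448, of family MOR202, lay on the titled GFP- side under both treatments. Its pool differences were -4.25, -5.25, -5.17 and -4.26 in odor and -3.84, -3.97, -2.63 and -3.60 in vehicle. The 4 odor pools were again lower without overlap. The difference was -1.22 ± 0.32 (SE, p 0.00243), with -1.23 in arrays titled GFP+ and -0.01 in those titled GFP-.

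Olfr905, of family MOR167, had the third smallest p among receptors, 0.000354. Its pool differences were -3.85, -4.14, -4.52 and -3.93 in odor and -2.52, -2.77, -2.67 and -3.30 in vehicle, and its difference was -1.29 ± 0.27 (SE). All 4 of its odor arrays titled GFP+ were at or below the negative control median, so that signal is a bound. With such signals raised to the negative control median the difference was -0.63.

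Other receptors differed mainly in the arrays titled GFP-. Olfr1245 was 1.89 higher there after odor, Olfr1161 1.43 higher and Olfr1221 2.22 higher, and their fraction contrast differences were -1.23, -1.21 and -1.67. With the replicate block, Olfr1221 passed in these arrays (adjusted limma p 0.0311), and Olfr1245 (0.0907) and Olfr1161 (0.202) did not. Raising dim signals to the negative control median gave -1.28 for Olfr1245 and -1.50 for Olfr1221. In Olfr1221, odor pool 1 stood alone at 0.34, with the other 3 between -1.57 and -1.33.

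Among the 7 receptors on the positive side, Olfr769 of family MOR114 had the largest difference, 1.46 ± 0.37 (SE, p 0.00159). Its pool differences were 2.32, 3.22, 2.48 and 3.59 in odor and 0.65, 1.98, 2.04 and 1.09 in vehicle, without overlap. It was 1.25 lower after odor in the arrays titled GFP- and 0.21 higher in those titled GFP+.

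Olfr772 and Olfr773, also of MOR114, stood at 1.35 ± 0.35 and 1.25 ± 0.33 (SE), and the pools of the treatments overlapped in both. Their signals ran together over the 16 arrays, with an SD of 0.211 for the log2 difference between them and a largest deviation of 0.527. Probes for near-identical receptors can read each other's transcript, so these count as 1 uncertain signal rather than 2. The 13 measured members of MOR114 had a median difference of 0.04.

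Olfr597, of family MOR23, lay near 0 in odor pools and on the titled GFP- side in vehicle pools. Its pool differences were -0.0022, 0.50, 0.04 and -0.13 in odor and -1.02, -1.26, -0.19 and -1.06 in vehicle, a difference of 0.99 ± 0.24 (SE, p 0.0012). Olfr691 of MOR31 gave 1.40 ± 0.36 and Olfr1137 of MOR177 gave 1.18 ± 0.33 (SE). For Olfr691, 2 of the 4 vehicle arrays titled GFP+ were at or below the negative control median. With such signals raised to that median its difference was 1.11. The remaining members of the 20 were Olfr19, Olfr229, Olfr571, Olfr635, Olfr735 and Olfr1447, with differences between -1.42 and 0.83.

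**Figure D3:**
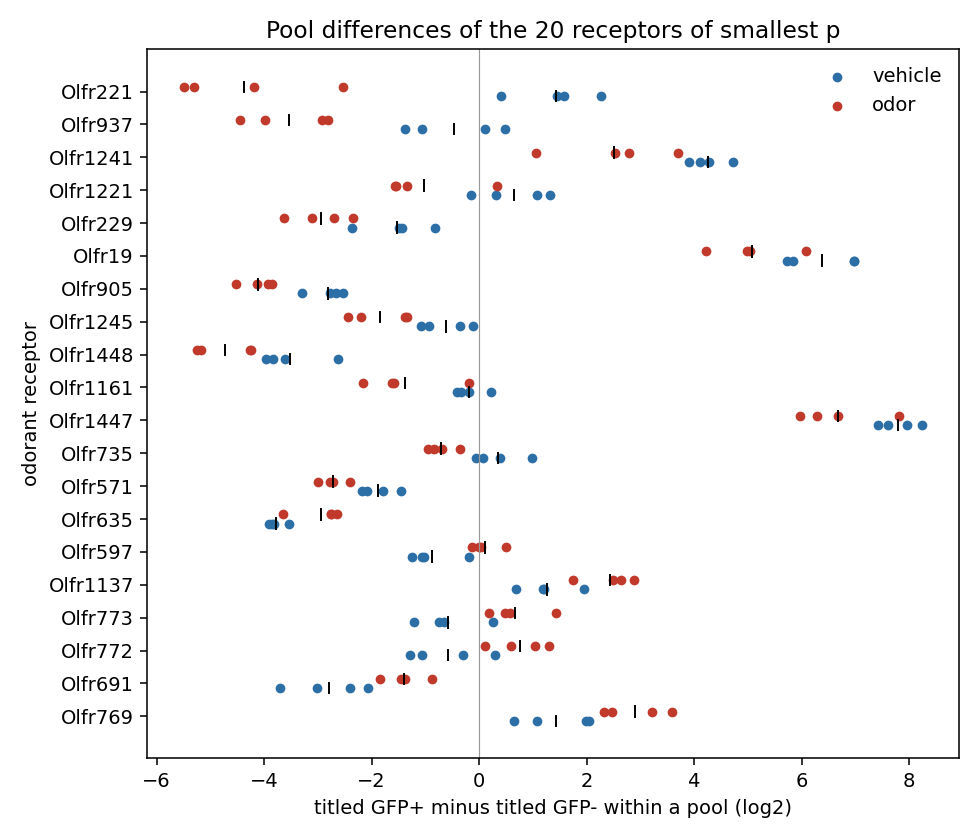
Titled GFP+ minus titled GFP- difference (log2, horizontal axis) of each pool for the 20 odorant receptors of smallest p, ordered by the fraction contrast difference; blue points are vehicle pools, red points odor pools, and black ticks their means. Olfr221 and Olfr937 have the widest gaps between treatments, and for most of the others the points of both treatments lie within a few units of each other on the same side of 0.

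Outside this set, 2 receptors, chosen with their values in view, had large differences with larger errors. Olfr224 stood at -1.56 ± 0.52 (SE, p 0.0108), and Olfr298 at 1.58 ± 0.61 (SE, p 0.0225), the highest value of the 1080, or 1.20 with dim signals raised to the negative control median. Between Olfr937, at rank 2 from the negative end, and Olfr1241, at rank 3, lay a gap from -3.07 to -1.73.

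Relatives of the marker receptors were examined by family and by position. A MOR family name was at hand for 1061 receptors in 222 families. Olfr221 was the only measured member of MOR205, so no relative of the same family could be set beside it. MOR171, the family of Olfr937, had 36 measured members. Without Olfr937, the other 35 had a median difference of -0.09, with 20 negative and 15 positive. After Olfr937 came Olfr229 at -1.42 ± 0.37 (SE, p 0.00211), but all 4 of its odor arrays titled GFP+ were at or below the negative control median, and with such signals raised to that median the difference was -0.94. At the other end of the family stood Olfr930 at 0.73.

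**Figure D4:**
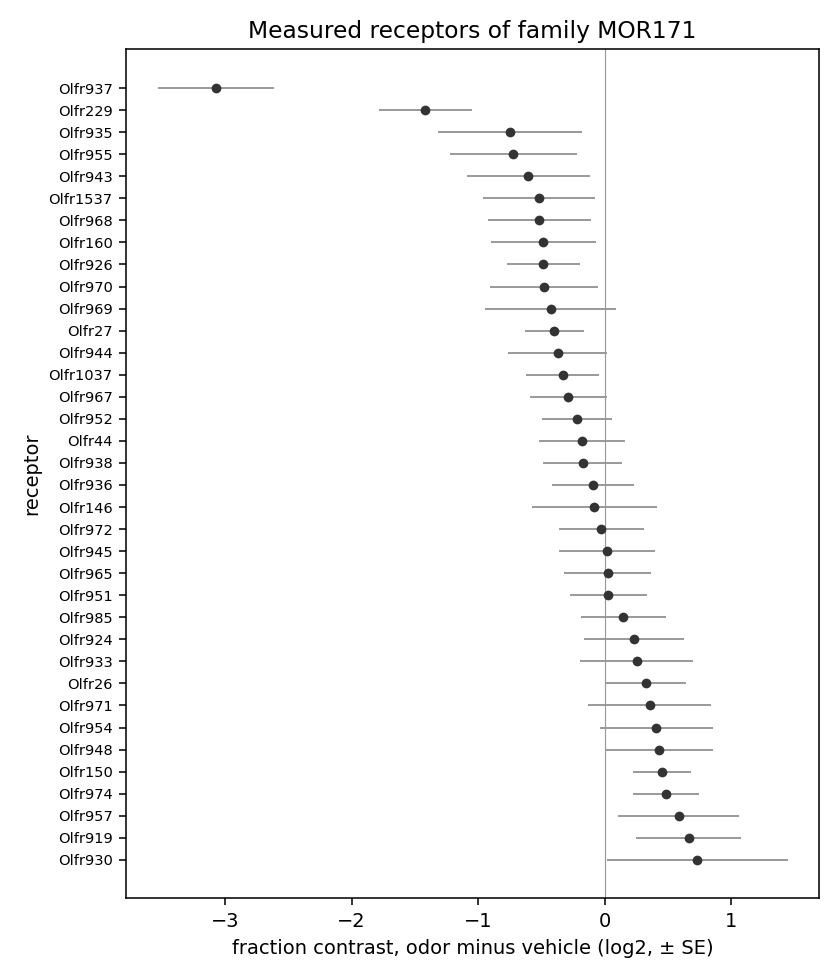
Fraction contrast difference, odor minus vehicle (log2, horizontal axis; bars are SE from the fit over 8 pools), of the 36 measured receptors of family MOR171, ordered by value. Olfr937 stands apart at -3.07, and the other 35 members lie between -1.42 and 0.73.

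The MOR171 receptors closest to Olfr937 at the start of the coding sequence had small differences. Of the 22 MOR171 windows with an ATG at the annotated start, the 3 most like Olfr937 over the first 50 bases are shown here, with the bases that differ from Olfr937 in capitals. Olfr948 lies at chr9:39319563-39319612 on the minus strand, Olfr967 at chr9:39750388-39750437 and Olfr944 at chr9:39217359-39217408 on the plus strand, all in GRCm38.p6.

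Olfr948: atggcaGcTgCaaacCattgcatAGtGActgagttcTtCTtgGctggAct
Olfr967: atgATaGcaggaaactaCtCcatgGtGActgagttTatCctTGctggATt
Olfr944: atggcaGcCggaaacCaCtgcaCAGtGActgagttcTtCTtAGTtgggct

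They share 37, 36 and 35 of the 50 bases with Olfr937, against a median of 28 for the other MOR171 members. Their fraction contrast differences were 0.42 ± 0.43 for Olfr948, -0.29 ± 0.30 for Olfr967 and -0.37 ± 0.39 for Olfr944 (SE). Each lay within its error of 0, and Olfr937 lay several times farther out. Only this short stretch was compared, and identity over the whole protein was not analysed here.

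The receptor genes next to the marker receptors also had small differences. Odorant receptor genes stand in clusters, and neighbouring members are often close paralogs. Olfr936, the gene before Olfr937 on chromosome 9, was at or below the negative control median in all arrays and gave -0.09 ± 0.32 (SE). Olfr938, with 1 gene between, gave -0.18 ± 0.31 (SE). For Olfr221 on chromosome 14 the nearest receptors were Olfr750, with 50 genes between, at 0.22 ± 0.48, and Olfr1513, with 15 genes between, at -0.04 ± 0.33 (SE).

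The families with the most members at small p were MOR202 and MOR103, singled out after their values were seen. Of the 31 measured receptors of MOR202, 8 had an unadjusted p under 0.05, 6 of them negative, and 0 passed after adjustment, where 7.59% of all receptors and 3.27% of all genes had such a p. They included Olfr1448 at -1.22, Olfr1446 at -1.28 and Olfr1447 at -1.12, and on the positive side Olfr1451 at 1.08. With dim signals raised to the negative control median, Olfr1446 stood at -0.57 and Olfr1451 at 0.82. The family median was -0.18. Olfr1446, Olfr1447 and Olfr1451 lay on the titled GFP+ side in both treatments, and Olfr1448 on the titled GFP- side. Of the 16 measured receptors of MOR103, 5 had such a p, all negative, and 0 passed after adjustment. In all, 15 of the 16 were negative, against 588 of the 1080 receptors, with a median of -0.43, from Olfr711 at -1.07 to Olfr750 at 0.22. A lean to 1 side was not particular to MOR103. Among other large families, MOR256 had 38 of 48 negative and MOR204 had 14 of 31.

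Trace amine-associated receptors, a separate small family of olfactory receptors for amines, centred at 0.05 over 15 measured genes, 8 positive and 7 negative. None passed. Taar3 was lowest at -1.25 and Taar2 highest at 0.87.

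Among genes of odor transduction and of mature neurons, none passed. The 21 measured genes of that list, which covers the G protein, adenylyl cyclase and ion channels of the cilia and the receptor chaperones, had a median of 0.01, and 0 of them had an unadjusted p under 0.05 by limma. Reep1 at -0.18 and Cngb1, a subunit of the cyclic nucleotide-gated channel, at 0.52 were its extremes. Cngb1 was at or below the negative control median in 1 to 3 of the 4 arrays of each group. It stood at 0.41 with dim signals raised to that median. The 13 activity-linked neuronal genes, S100a5 among them, had a median of -0.04, from Epha5 at -0.26 to Pcdh17 at 0.21, and again 0 with an unadjusted p under 0.05. The 14 genes of receptor choice, which include the transcription factors Lhx2 and Ebf1, had a median of 0.02, from Kdm1a at -0.17 to Ddit3 at 0.24.

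Immature neuron genes had a median of 0.02 over 15 genes, from Gng8 at -0.57 to Marcksl1 at 0.69. With dim signals raised to the negative control median, Marcksl1 stood at 0.50. Progenitor and cell cycle genes had a median of 0.04 over 11, with 6 positive and 5 negative. They ran from Trp63 at -0.66 to Mki67, a proliferation marker, at 1.08, and Top2a stood at 0.04. Trp63 was at or below the negative control median in all 16 arrays. Neither list had a gene past the threshold. In all, 19 lists with 213 genes were described, 0 of these genes passed, and the medians of 16 lists lay within 0.25 of 0.

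Genes outside the receptor family with the smallest p did not pass either, all at an adjusted limma p of 0.999. On the negative side were Zfp389 at -1.17, Pter at -1.12, Vmn1r257 at -0.81, Vmn1r138 at -0.80 and Kcng1 at -0.75. All of these except Kcng1 were at or below the negative control median in all 16 arrays. Kcng1, a modifier subunit of voltage-gated potassium channels, read 8.62, 9.44, 9.75 and 9.54 in odor and 7.94, 8.50, 8.95 and 8.93 in vehicle arrays titled GFP+. In arrays titled GFP- it read 10.65, 11.78, 11.51 and 11.11 in odor and 9.07, 9.85, 9.98 and 10.14 in vehicle. The odor values lay above every vehicle value in the arrays titled GFP-, where the difference was 1.50 ± 0.28 (SE, adjusted p 0.157), or 1.50 ± 0.15 (SE, adjusted p 0.000755) with the replicate block.

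On the positive side were Rhag at 1.66, Hbq1b at 1.40, Gins1 at 1.31, Mpp4 at 0.97 and Vmn2r27 at 0.83. Mpp4 and Vmn2r27 were at or below the negative control median in all 16 arrays, and Rhag, Hbq1b and Gins1 in all 8 arrays titled GFP-. Rhag, a membrane protein of red cells, read 9.88, 9.84, 11.17 and 8.34 in odor and 8.55, 7.05, 9.37 and 8.86 in vehicle arrays titled GFP+. These 2 groups overlapped, while the pool differences, which also carry the dim arrays titled GFP-, did not. With dim signals raised to the negative control median, the difference of Rhag was 1.58, that of Hbq1b, a globin gene, 0.36 and that of Gins1, a subunit of a DNA replication complex, 0.33.

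The erythroid list, markers of red cells and their precursors, had the highest median of the 19 lists, 1.38. Of its 12 genes 4 were measured, the adult haemoglobin genes not among them. Rhag at 1.66, Epb42 at 1.51, Slc4a1, the anion exchanger of the red cell membrane, at 1.25 and Alas2, the first enzyme of erythroid haem synthesis, at 0.94 were all positive. All 4 had an unadjusted p under 0.05, against 3.27% of all genes, and 0 passed after adjustment. The list's median pool difference was 4.08, 3.85, 4.43 and 2.46 in odor pools 1 to 4 and 2.82, 1.26, 2.70 and 2.53 in vehicle pools, and odor pool 4 lay among the vehicle pools.

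The mean log2 signal of the 4 erythroid genes was 8.64 to 10.96 in odor and 7.70 to 9.36 in vehicle arrays titled GFP+, and 5.68 to 6.54 in odor and 5.92 to 6.32 in vehicle arrays titled GFP-. Red cell transcripts were thus brighter in the fraction titled GFP+ in all pools. Their part in the receptor differences was not tested. Without odor pool 4, which had the lowest erythroid contrast of the odor pools, the difference of Olfr221 was -6.42, and that of Olfr937 was -3.32. This pool also had the weakest odor contrasts of both receptors, -2.53 and -2.80. Larger differences without it follow from those values alone, and nothing about red cells is read from them.

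Immediate early genes, which activity or the handling of cells induces quickly and many of which encode transcription factors, had the next highest median, 0.52 over 21 genes. Of these 18 were positive and 3 negative, against 9759 positive and 9746 negative among all genes. An unadjusted p under 0.05 was found for 3 of the 21, against 3.27% of all genes, and 0 passed. Nr4a2 was highest at 1.46 ± 0.44 (SE), Nr4a3 followed at 1.15 (1.65 with dim signals raised to the negative control median), and Egr1 was lowest at -0.25. The list's median pool difference was 3.63, 2.06, 3.47 and 1.68 in odor and 2.99, 1.18, 1.01 and 1.28 in vehicle, which overlap. Without odor pool 3 the list median was 0.19, and without vehicle pool 3 it was 0.24. It was 0.23 without odor pool 1 and 0.27 without vehicle pool 2. The highest value of any gene that is no odorant receptor was that of Ptgs2, the inducible cyclooxygenase, at 1.71, singled out after its value was seen. The 8 heat shock genes had a median of 0.17.

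Markers of the other cell types that a sort of olfactory mucosa can hold centred closer to 0. The median was 0.00 for 11 neutrophil genes, -0.08 for 13 macrophage and antigen presentation genes and 0.25 for 8 lymphocyte genes. It was 0.00 for 11 genes of sustentacular cells, the supporting cells of the epithelium, 0.02 for 12 genes of microvillar cells and -0.06 for 8 genes of Bowman's glands. For respiratory ciliated cells it was 0.13 over 9 genes, for endothelial and stromal cells 0.06 over 8, for olfactory ensheathing glia -0.31 over 4 and for GC-D and vomeronasal-type neurons -0.04 over 7.

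No marker of these lists passed. Single markers with larger values were C1qc, a complement gene of macrophages, at -0.76, Cd3e, a T cell receptor subunit, at 0.84, Ascl3, a microvillar cell factor, at 0.66 and Obp1a, an odorant-binding protein of the glands, at -1.32. With dim signals raised to the negative control median, Obp1a stood at -0.29 and Ascl3 at 0.41. The microvillar genes went both ways, 6 positive and 6 negative, with Foxi1 lowest at -0.53. Of the 19 lists, the neutrophil list differed most between fractions, with a median pool difference between 7.59 and 9.06 over the 8 pools, toward the fraction titled GFP+ under both treatments.

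**Figure D5:**
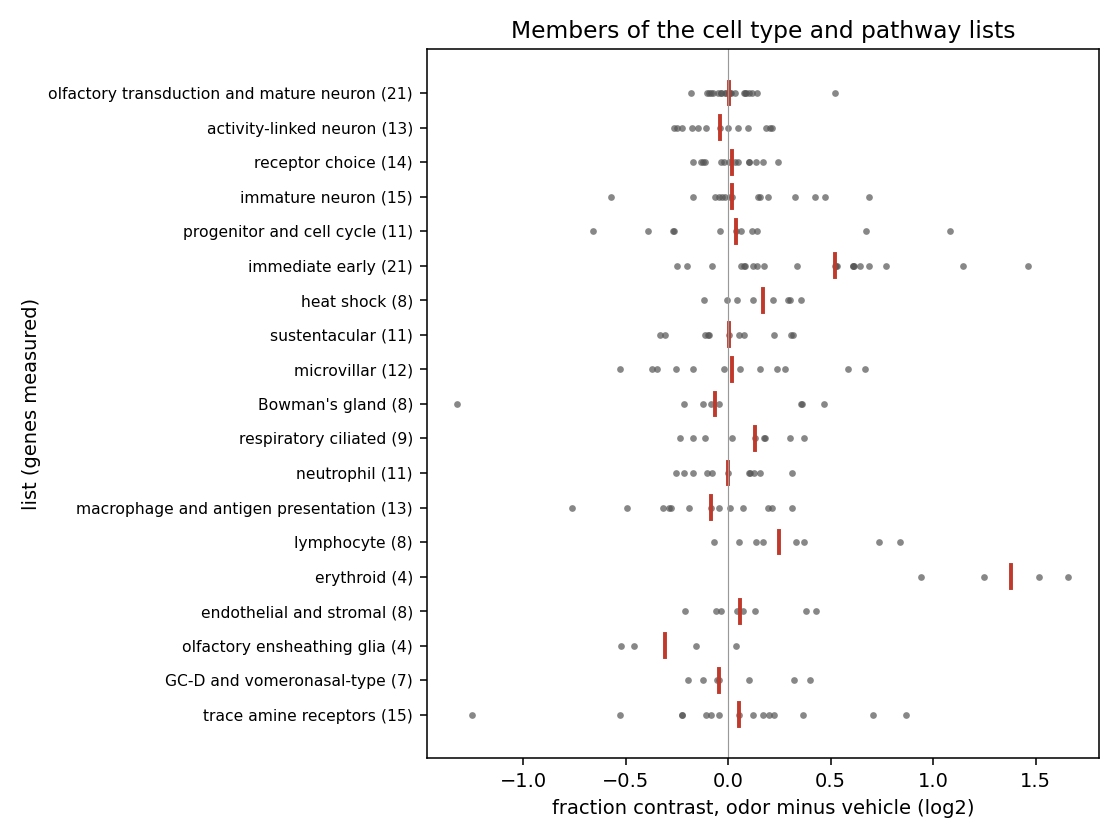
Fraction contrast difference, odor minus vehicle (log2, horizontal axis), of the measured genes of 19 cell type and pathway lists, 1 point per gene, with the list median as a red bar and the number of genes measured in brackets. The erythroid list has its median at 1.38 and the immediate early list at 0.52, and 16 of the 19 medians lie within 0.25 of 0.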

How the data were processed

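The deposited table held log2 signals of 28846 features on 16 arrays. The submitters' processing notes name Affymetrix Expression Console. Software version, normalization and background correction: not given in the sources used here. That the scale is log2 follows from the range of the values. A platform annotation gave 1 gene symbol to 19572 features, all matched to RefSeq (GRCm38.p6). The brightest feature was kept for the 55 genes with more than 1, which left 19505 genes. Groups, pools and replicate numbers came from the titles.

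The contrast was fitted with limma 3.58.1 in R 4.3.3 (two-sided, eBayes with a mean-variance trend). Pool was a fixed block, which leaves 6 residual degrees of freedom, and p was adjusted by Benjamini-Hochberg over all genes at a threshold of 0.05. Odor and vehicle were compared within a fraction by 4 group means with pool as a random block (correlation 0.164). No dim genes were left out. The 2 most similar arrays differed with an SD of 0.359, so no 2 hold the same values. The number of pools limits the precision.

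The members, lists and tests were chosen with earlier results of these data known. Named were Olfr221, Olfr937, S100a5 and Omp, genes past the threshold, the 20 receptors of smallest p, the 5 other genes of smallest p in each direction, the nearest receptor genes of Olfr221 and Olfr937, and up to 2 members of each list. Nr4a3, Cd3e, Trp63, Top2a, Foxi1, Olfr930, the genes past the threshold with the replicate block and other receptors of MOR171 were named outside this rule, with their values known. The shared replicate numbers were checked by the correlation of odor and vehicle arrays, as deviations from group means. In arrays titled GFP- it was 0.198 to 0.279 and over 0.1 in 4 of 4 pairs. In arrays titled GFP+ it was 0.0787 to 0.410 and over 0.1 in 3 of 4. The numbers were read as pairs for the arrays titled GFP- only, although the blocked fit put the replicate number on the arrays of both fractions. The titles give the numbers only, and the reading as pairs came from the same data as the calls.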

Additional observations from a re-analysis of the deposited data

Results flagged for a closer look

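The fraction contrast of Olfr221 differed between treatments by -5.81, by a test of the difference itself, with opposite signs in all 4 odor and all 4 vehicle pools. Of 150 groups of 4 pool differences, 8 had 1 pool far from the other 3, and chance gives about 1 in 20. In odor pool 4, Rhag stood at 5.19 (others 5.97 to 6.12), Alas2 at 1.73 (others 2.68 to 2.80), Col3a1 at 0.97 (others -0.26 to -0.15) and Olfr635 at -3.64 (others -2.76 to -2.63). Olfr1221 stood at 0.34 in odor pool 1 (others -1.57 to -1.33) and Olfr938 at 0.61 in odor pool 2 (others 1.47 to 1.60). Among vehicle pools, Olfr936 stood at -1.06 in pool 3 (others -0.23 to -0.08) and Ascl3 at 1.05 in pool 4 (others 2.90 to 3.08). Col3a1 and Olfr936 were at or below the negative control median in all 16 arrays, so their outliers lie within background.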

How the results depend on the processing

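The fraction contrast difference was recomputed under 17 alternatives, 9 of them with all pools. The count of genes, and of receptors, past the threshold was 1 and became 0 without a variance trend, where Olfr221 stood at -5.81 with an adjusted p of 0.0572, 2 with arrays centred on the odorant receptors and 2 with the replicate number as a block. In the latter pair Olfr937 passed, at -3.07 with adjusted p of 0.0285 and at -3.07 with adjusted p of 0.00459. For pool differences the numbers were not taken as pairs: odor and vehicle pools of 1 number correlated at 0.0729 to 0.253, over 0.1 in 3 of 4, and 3 of 4 correlated best with their own number. In arrays titled GFP+ the correlations were 0.0787 to 0.410, also over 0.1 in 3 of 4, and the count of genes, 1, was 12 with the replicate block, 0 without dim genes, 0 without a variance trend, and 0 to 8 with a pool left out, 8 of them without odor pool 4. In arrays titled GFP- the count, 0, was 1 with receptor centring, 14 with the replicate block, and 0 to 2 with a pool left out, 2 of them without odor pool 4. Of 605 values of 37 single-gene results, 590 kept their direction and side of the threshold, 9 lost and 5 gained the call, and S100a5 reversed, to 0.0034 without odor pool 1 (-0.19 to 0.0034 over the left-out pools). The cause of these changes was not tested. Signals near the negative controls limit what can be said of dim receptors.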
